A study of Mus musculus with 32 samples.

Results

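The immediate early genes examined here are Fos, Fosb, Jun, Junb, Egr1, Egr2, Atf3, Ier2, Nr4a1 and Dusp1, 10 of the 41687 rows of a gene-level RNA sequencing table from mouse lung. They were taken by symbol, and all 10 were found. Immediate early genes are transcribed within minutes of a stimulus such as a growth factor, stretch, calcium entry or stress, because the factors that switch them on, among them SRF with its ternary complex partners and CREB, are already present in the cell. Their messages decay quickly, and several of their products are transcription factors that act on later genes or phosphatases and RNA-binding proteins that end the signal. In lung they are induced by ventilation, inflammation, hypoxia and handling of the tissue.

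RNA came from whole lungs of 12 adult mice aged 8 to 18 weeks, 6 wild type (WT, C57b/6) and 6 Bmal1 knockouts (KO), bred in-house and all labelled female. Bmal1 (gene symbol Arntl) pairs with Clock to drive the transcription of circadian genes. The mice were killed with carbon dioxide and the lungs were snap-frozen, per the labels; the labels give no time of day and no cell type or promoter for the knockout. RNA of each mouse was made into a RiboZero library (pull-down of ribosomal RNA) and a PolyA library (selection of polyadenylated RNA), with 6 WT and 6 KO mice in each, and RNA of mice 3 to 6 of each genotype was also sequenced with no selection (NoSelect, 4 WT and 4 KO). Each mouse has its own number within its genotype, so that a mouse can be followed across preparations, whereas WT mouse 3 and KO mouse 3 are different animals. In a bulk sample, fewer cells of a type and less RNA per cell cannot be told apart.

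Estimated counts per library totalled 11638594 to 25801237 in RiboZero, 29924325 to 41548830 in PolyA and 74979802 to 115059756 in NoSelect, of which 67.8% to 71.5% lay in the Lars2 and Gm42418 rows in NoSelect. The lowest count of any member in any library was 21 (Fosb). Levels are given as normalised CPM, counts scaled to library size with trimmed-mean (TMM) factors over all 32 libraries, and differences as log2 fold changes from the edgeR quasi-likelihood test with Benjamini-Hochberg adjusted p. Arntl was lower in KO in all 3 preparations (log2 -0.83, -0.27 and -0.69 in RiboZero, PolyA and NoSelect; adjusted p = 2.46e-05, 0.0262 and 0.000451, edgeR). KO mouse 6 went against 2 labels. Its NoSelect library is labelled Liver, yet the secretory cell gene Scgb1a1 stood at 12591 and the surfactant gene Sftpc at 5329 normalised CPM there, whereas Alb stood at 0.391 and 5 of 10 hepatocyte markers at 0. The mouse is labelled female, yet 4 Y-linked genes summed to 104 to 190 normalised CPM in its 3 libraries and to 0 to 0.036 in all others. Leaving this mouse out left 0 members called in each of the 3 preparations.

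Promoters are shown for Fos, Egr2 and Dusp1, the members called in at least 1 preparation when KO mouse 3 was left out, and for Nr4a1, which holds the most copies of the CREB core, as the 250 bases before the RefSeq transcription start (GRCm38.p6, 5′ to 3′ on the strand of the gene). Of the 10 members, 8 were in the RefSeq promoter table; Egr1 and Ier2 were not. Capitals mark TGACG, the core of the CREB site, which reads CGTCA where it lies on the opposite strand. They also mark TGACGTCA, the full CREB palindrome, which contains the core in both directions. The remaining capitals are CACGTG, the E-box bound by clock factors such as Bmal1, and GCGGGGGCG, the Egr site, on either strand. The windows are chr12:85473640-85473889 (+) for Fos, chr15:101266596-101266845 (+) for Nr4a1, chr17:26508473-26508722 (-) for Dusp1 and chr10:67535249-67535498 (+) for Egr2, for which the nearest of 5 RefSeq starts to the annotated gene start was used. The RefSeq starts of Dusp1, Nr4a1 and Atf3 lie 53656, 12577 and 34706 bases from the outermost starts of these genes in GENCODE. Whether a GENCODE transcript starts nearer to these RefSeq starts was not examined.
Fos: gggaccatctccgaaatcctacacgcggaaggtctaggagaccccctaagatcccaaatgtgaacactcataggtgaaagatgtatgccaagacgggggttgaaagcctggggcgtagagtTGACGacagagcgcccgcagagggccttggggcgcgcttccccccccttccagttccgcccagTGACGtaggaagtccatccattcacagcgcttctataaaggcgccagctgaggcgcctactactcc
Nr4a1: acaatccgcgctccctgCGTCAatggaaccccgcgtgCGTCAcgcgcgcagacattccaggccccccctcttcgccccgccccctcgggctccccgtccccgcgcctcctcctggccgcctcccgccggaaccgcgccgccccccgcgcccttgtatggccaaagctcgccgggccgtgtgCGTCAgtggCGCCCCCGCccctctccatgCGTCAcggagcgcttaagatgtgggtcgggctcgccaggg
Dusp1: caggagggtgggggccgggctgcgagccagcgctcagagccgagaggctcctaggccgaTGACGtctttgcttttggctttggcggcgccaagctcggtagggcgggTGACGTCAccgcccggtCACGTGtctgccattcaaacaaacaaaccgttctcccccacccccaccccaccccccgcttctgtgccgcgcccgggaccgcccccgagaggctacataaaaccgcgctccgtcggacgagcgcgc
Egr2: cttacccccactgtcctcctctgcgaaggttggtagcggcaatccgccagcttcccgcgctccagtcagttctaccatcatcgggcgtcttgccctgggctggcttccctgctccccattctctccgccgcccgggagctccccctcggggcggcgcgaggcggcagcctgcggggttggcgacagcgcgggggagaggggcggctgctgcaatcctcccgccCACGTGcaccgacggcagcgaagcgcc
TGACG was present on either strand in 6 of the 8 windows (Fos, Fosb, Junb, Atf3, Nr4a1 and Dusp1), against 17.85% of all 32536 RefSeq windows of this length. Nr4a1 held 4 copies, at 233, 213, 69 and 40 bases before the start (position of the first base), and Fos held 2, at 129 and 66 bases. TGACGTCA was found in Dusp1 alone of the 8 and in 1.56% of all windows. CACGTG was found in Egr2 and Dusp1, 2 of 8, and in 6.04% of all windows. GCGGGGGCG was found in Fosb and Nr4a1, 2 of 8, and in 2.6% of all windows. The SRF-bound CArG box was in 0 of the 8 windows and in 1.48% of all windows, and the AP-1 site TGANTCA was in 0 of 8 and in 6.73%. The other motifs counted were GGGCGG, the GC box, in 7 of 8 and in 32.97% of all windows, CCGGAAG in 0 of 8 and in 6.95%, and TATAA in 1 of 8 (Fos) and in 15.94%. The base composition of the windows was not taken into account, so a share above that of all windows is not particular to the CREB core. A match describes letters in a window of this length and says nothing of binding. Bases further upstream were not searched, nor were Egr1 and Ier2. A motif absent here, such as the CArG box, may therefore still lie near these genes.

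Of the 10 members, Egr2 in PolyA was the 1 that passed the test between KO and WT lungs, although most members had lower means in KO. Mean KO levels of Fos were 46.9%, 49.2% and 51.7% of WT in RiboZero, PolyA and NoSelect, those of Egr1 48.7%, 50.1% and 55.1%, and those of Jun 100.2%, 104% and 107%. In RiboZero 10 of 10 members had a lower fitted mean in KO, with a median log2 fold change of -0.91. In PolyA and NoSelect 9 of 10 were lower, with medians of -0.89 and -0.59, and Jun was the exception in each. Of all rows tested, 49.8% to 50.8% were lower, with medians that round to 0.00 in each preparation. All 10 members passed the filter on low counts in every comparison. At an adjusted p under 0.05, 0 of 10 members were called in RiboZero, where 3.46% of 16710 rows were called. In PolyA 1 of 10 was called (Egr2), where 4.03% of 17211 rows were called, and in NoSelect 0 of 10, where 2.17% of 17124 rows were called. At an unadjusted p under 0.05 the edgeR test gave 5, 2 and 1 members, against 16.4%, 18.0% and 15.7% of rows. DESeq2 called 1 (Egr2), 1 (Egr2) and 0 members, against 5.84%, 7.87% and 5.13% of rows. With the number that WT and KO mice share as a block, although it names different animals, 3, 4 and 0 members were called, against 2.23%, 3.58% and 0.601% of rows. The 3 comparisons use the same mice. WT and KO libraries overlapped for all 10 members in each preparation, whereas 1.47%, 1.49% and 4.4% of rows lay lower in KO without overlap.

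**Figure D1:**
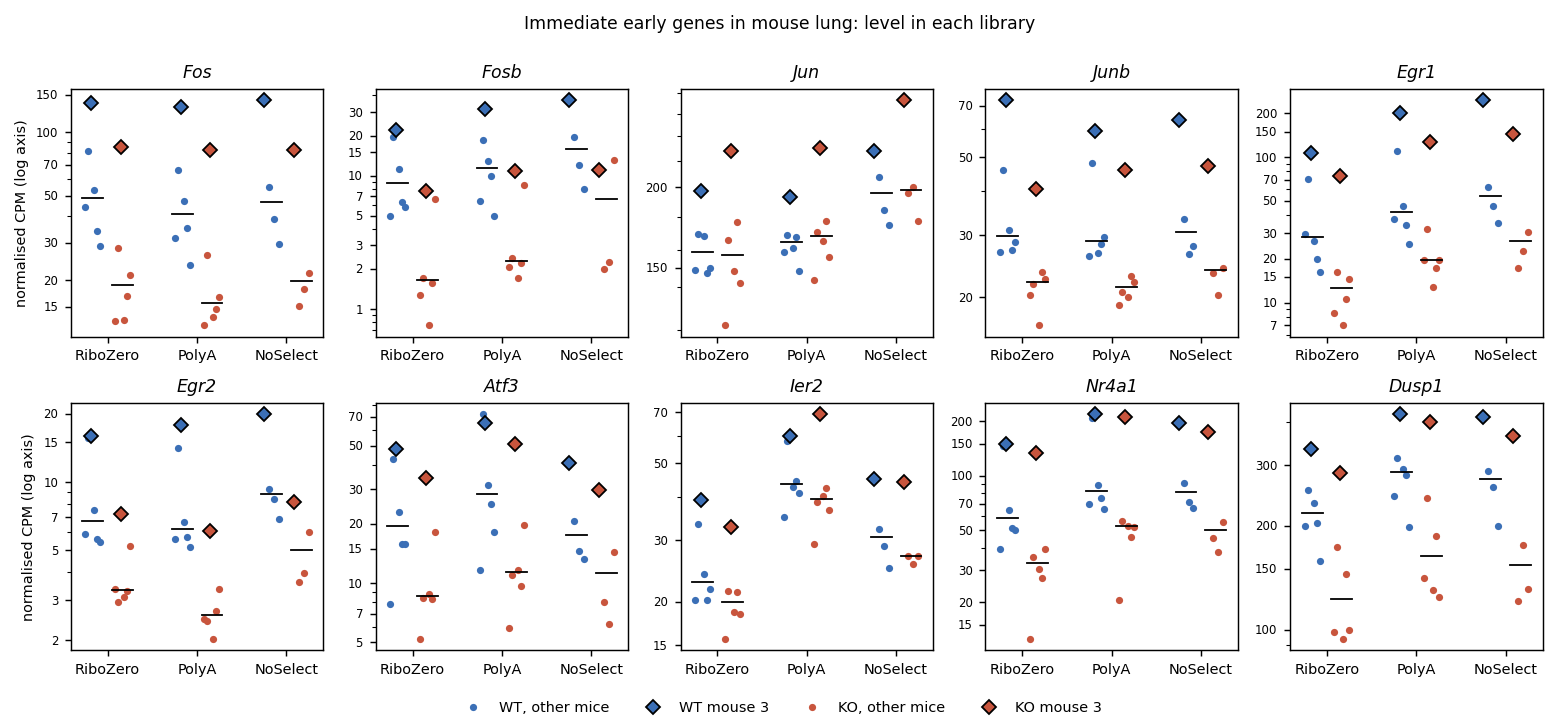
Normalised CPM (log axis) of the 10 immediate early genes in each of the 32 libraries, by preparation, with WT in blue and KO in red, mouse 3 of each genotype as a diamond and bars at group medians. KO mouse 3 stands above the other KO mice in nearly all panels, as for Fos at 85.2 in RiboZero against 12.9 to 28.4 in the other KO mice.

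Fos and Fosb encode the Fos partners of the AP-1 dimer. In RiboZero, Fos ran from 29.0 over a median of 48.7 to 137 normalised CPM in WT and from 12.9 over 19.0 to 85.2 in KO. In PolyA the corresponding values were 23.7, 41.2 and 132 in WT and 12.2, 15.6 and 82.1 in KO. In NoSelect WT mice 3 to 6 gave 141, 55.0, 39.0 and 29.6, and KO mice 3 to 6 gave 82.2, 15.1, 18.1 and 21.6. In every preparation the highest KO value was that of mouse 3, and all other KO mice lay below the WT median. The log2 fold changes of Fos were -1.13 (SE 0.51), -1.05 (SE 0.55) and -0.97 (SE 0.66), with adjusted p = 0.296, 0.336 and 0.544 (edgeR).

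Fosb had the largest fitted difference in each preparation. Its RiboZero level ran from 4.96 over 8.81 to 22.0 in WT and from 0.755 over 1.64 to 7.61 in KO, and its PolyA level from 4.95 over 11.5 to 31.5 and from 1.71 over 2.30 to 10.9. In NoSelect WT mice 3 to 6 stood at 36.7, 19.6, 12.1 and 7.88 and KO mice at 11.1, 1.99, 2.25 and 13.0. All KO values lay below the WT median in every preparation, but KO mice 3 and 6 overlapped the WT range. The mean KO level was 28%, 33.0% and 37.2% of WT (log2 -1.90, -1.63 and -1.42; adjusted p = 0.112, 0.143 and 0.366, edgeR). In NoSelect KO mouse 6, and not KO mouse 3, was the highest KO animal for Fosb, and without KO mouse 6 the log2 fold changes were -2.29, -1.88 and -1.91.

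Jun and Junb encode the Jun partners of AP-1, and Jun had the smallest spread of all members in WT: WT libraries ran from 147 to 197 normalised CPM in RiboZero and from 148 to 193 in PolyA, and KO libraries from 122 to 228 and from 144 to 230. Its groups overlapped throughout, and its log2 fold changes were -0.00, 0.03 and 0.09 with SEs of 0.13, 0.10 and 0.14. The log2 fold changes of Junb were -0.69, -0.57 and -0.41 (adjusted p = 0.217, 0.29 and 0.632, edgeR). Its KO level without mouse 3 was 20.97 ± 2.71 in RiboZero and 20.94 ± 1.60 in PolyA (SD, n = 5), below the lowest WT library at 26.8 and 26.3. Mouse 3 was left out here after its values were seen, so this separation is no test. Without KO mouse 3, 1.87% and 1.8% of all rows lay lower in KO without overlap.

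Atf3, a stress-induced factor of the CREB and AP-1 family, ran from 7.88 over 19.5 to 48.0 in WT and from 5.20 over 8.63 to 34.1 in KO in RiboZero. In PolyA it ran from 11.65 to 72.2 in WT and from 5.93 to 50.8 in KO. The low end of WT was mouse 1 in both, which overlapped the KO mice, and the high end was WT mouse 3 in RiboZero and WT mouse 2 in PolyA. The log2 fold changes of Atf3 were -0.94, -1.07 and -0.63, with adjusted p = 0.393, 0.339 and 0.628 (edgeR).

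Egr1 and Egr2 are zinc finger factors, of which Egr1 is widely used as a marker of recent stimulation. Egr1 in PolyA ran from 25.1 over 42.1 to 202 in WT and from 12.82 over 19.6 to 127 in KO. In RiboZero it ran from 16.2 over 28.1 to 108 in WT and from 6.98 over 12.6 to 74.6 in KO. In NoSelect WT mice 3 to 6 stood at 246, 61.9, 46.0 and 35.5 and KO mice at 144, 17.4, 22.5 and 30.5. In each case the animal numbered 3 was the highest of its genotype. The log2 fold changes of Egr1 were -1.10, -1.03 and -0.87 with SEs of 0.64, 0.66 and 0.83 (adjusted p = 0.438, 0.447 and 0.675, edgeR).

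Egr2 had the lowest adjusted p of the members in each preparation. In PolyA it ran from 5.18 over 6.20 to 17.9 in WT and from 2.02 over 2.60 to 6.05 in KO, so that 5 of 6 KO mice lay below the lowest WT mouse and 6 of 6 below the WT median. In RiboZero it ran from 5.42 over 6.72 to 15.9 in WT and from 2.95 over 3.34 to 7.26 in KO. In NoSelect WT mice 3 to 6 stood at 19.9, 9.28, 8.40 and 6.87 and KO mice at 8.16, 3.63, 3.96 and 6.04. Mouse 3 was again the highest KO animal, and the groups overlapped through it. It was set apart after the values were seen, so the lower values of the other KO mice are no test. Egr2 fell in PolyA by 1.56 on the log2 scale (SE 0.37, adjusted p = 0.036, edgeR). In RiboZero and NoSelect its log2 fold changes were -1.18 (SE 0.34, adjusted p = 0.0829) and -1.04 (SE 0.38, adjusted p = 0.233). The PolyA call was lost in 8 of 12 edgeR fits that each left out 1 mouse (adjusted p from 0.0168 to 0.0898), namely without WT mice 2, 3 or 4 or KO mice 1, 2, 4, 5 or 6, and with mice 3 to 6 alone (adjusted p = 0.175). DESeq2 also called Egr2 in RiboZero (adjusted p = 0.0125, within a range of 0.0125 to 0.343 over all alternatives). About 0.406% of the 31-base words of Egr2 transcripts are shared with Egr3.

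Nr4a1 is an orphan nuclear receptor, and Ier2 encodes a nuclear protein. Nr4a1 ran from 39.3 over 58.0 to 148 in WT and from 12.5 over 32.9 to 133 in KO in RiboZero, and from 65.2 over 81.7 to 218 and from 20.5 over 52.5 to 211 in PolyA. KO mouse 3 lay within the upper WT range, and the other 5 KO mice lay below every WT mouse in both preparations. In RiboZero the margin was narrow, with KO mouse 6 at 39.23 and WT mouse 1 at 39.31. KO mouse 3 was set aside after its values were seen, so this separation is no test. Without KO mouse 3, 1.87% and 1.8% of all rows lay lower in KO without overlap. The log2 fold changes of Nr4a1 were -0.88, -0.76 and -0.45 (adjusted p = 0.447, 0.482 and 0.757, edgeR). Ier2 ran from 20.2 over 22.9 to 39.3 in WT and from 15.6 over 20.03 to 32.8 in KO in RiboZero, with overlapping groups and log2 fold changes of -0.32, -0.17 and -0.09 (SE 0.20, 0.19 and 0.22; adjusted p = 0.475, 0.71 and 0.897, edgeR).

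Dusp1 encodes the phosphatase that inactivates p38, JNK and ERK and so ends the signal that induces these genes. In RiboZero it ran from 158 over 218 to 336 in WT and from 93.8 over 122 to 284 in KO, and in PolyA from 199 over 287 to 423 and from 125 over 164 to 402. In NoSelect WT mice 3 to 6 stood at 415, 288, 259 and 200 and KO mice at 364, 121, 176 and 131. The log2 fold changes of Dusp1 were -0.64, -0.55 and -0.56 (SE 0.27, 0.28 and 0.37; adjusted p = 0.26, 0.334 and 0.523, edgeR). Exons of Dusp1, Junb and Jun overlap those of Ergic1, Prdx2 and Junos on the opposite strand; the kits mark strand, per the labels, and whether counting used it is not given in the sources used here.

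KO mouse 3 stood apart from the other KO animals. It was the highest KO animal for 10 of 10 members in RiboZero and in PolyA and for 9 of 10 in NoSelect, against 18.5%, 14.3% and 25.7% of all rows. Its Egr1 level was 6.55, 6.29 and 6.15 times the mean of the other KO mice in the 3 preparations, its Fos level 4.62, 4.93 and 4.50 times, its Nr4a1 level 4.60, 4.64 and 3.77 times and its Jun level 1.51, 1.41 and 1.43 times. In Arntl (17.9, 19.6 and 18.7 normalised CPM) it lay within the KO range, and its Nr1d1, a direct target of Bmal1, stood at 0.498, 0.430 and 0.520, against at least 7.35, 17.2 and 16.0 in WT. The RiboZero library of KO mouse 3 had the lowest total of that preparation (11638594) and the highest mitochondrial share (3.81%). Its PolyA library had the highest mitochondrial share (3.92%), and its NoSelect library the highest Lars2 and Gm42418 share (71.5%). Its PolyA total and its NoSelect mitochondrial share were not extreme. The part of these library traits was not tested. WT mouse 3 was the highest WT animal for 10, 9 and 10 members. WT mouse 2, WT mouse 3 and KO mouse 3 held the top 3 ranks of all 12 mice for 7 of 10 members in RiboZero and in PolyA, against 0.622% and 0.453% of all rows, and WT mouse 3 and KO mouse 3 held the top 2 of 8 in NoSelect for 8 of 10, against 3.17%. These animals were picked after the values of the members were seen, and the members move together. The row shares are therefore no test of this grouping. What these 3 animals share was not tested.

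**Figure D2:**
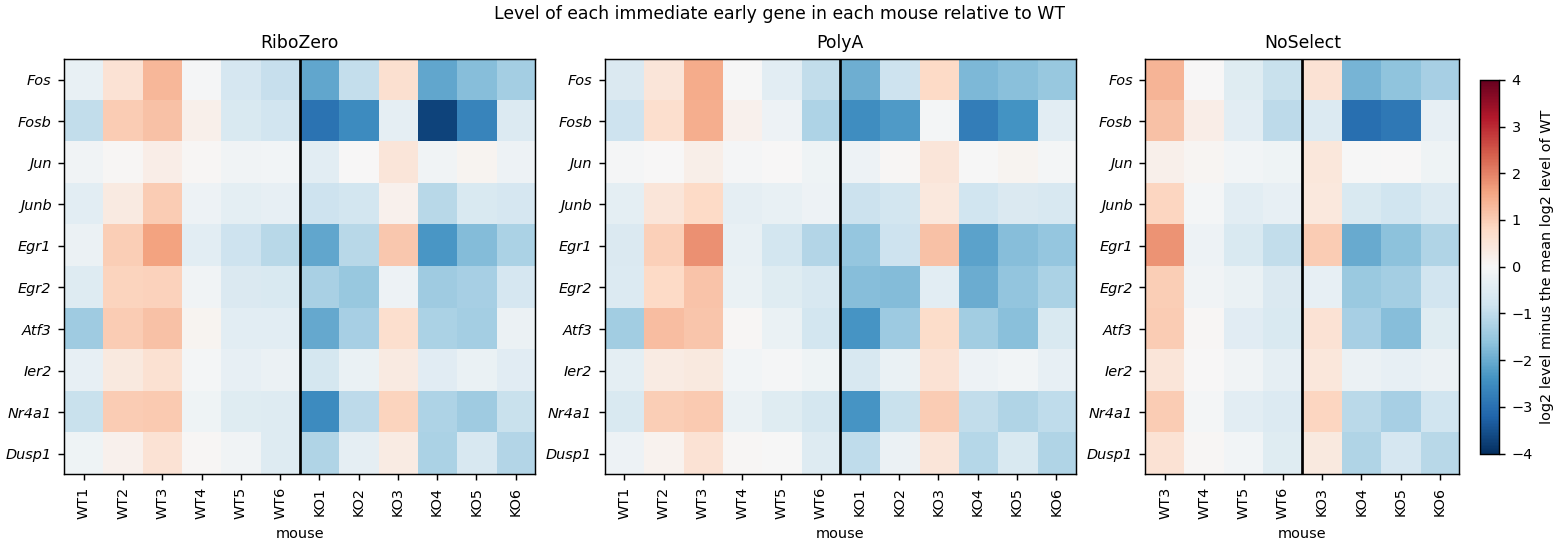
Log2 level of each immediate early gene (rows) in each mouse (columns) minus the mean log2 level of WT, for the 3 preparations, with red above and blue below the WT mean and a black line between WT and KO. WT mice 2 and 3 and KO mouse 3 are red in most rows, with KO mouse 3 above the WT mean for 8 of 10 members in each preparation.

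Leaving out 1 mouse at a time was planned, and KO mouse 3 was singled out after its values were seen; removing the highest KO animal necessarily widens a difference in this direction. Without it, 3 of 10 members were called lower in RiboZero (1.66% of rows called lower), namely Fos (log2 -1.78, SE 0.40, adjusted p = 0.0321), Egr2 (-1.38, SE 0.34, 0.0432) and Dusp1 (-0.92, SE 0.21, 0.0332) by edgeR. The same 3 were called lower in PolyA (1.84% of rows called lower), Fos at -1.78, Egr2 at -1.84 and Dusp1 at -0.86 (adjusted p = 0.0434, 0.0168 and 0.0487, edgeR). In NoSelect 0 of 10 were called (0.794% of rows called lower), with the lowest adjusted p at 0.103 and 7 members at an unadjusted p under 0.05 (15.7% of rows with all mice). WT and KO libraries then did not overlap for 4, 3 and 6 of 10 members, against 1.87%, 1.8% and 6.83% of rows. KO mouse 3 was the highest KO animal for nearly all members but for 18.5%, 14.3% and 25.7% of rows. The shares of rows without it are therefore no like baseline for the members. Without WT mouse 3 instead, 0 members were called in each preparation, the medians were -0.63, -0.46 and -0.10, and Egr1, Ier2 and Nr4a1 changed sign in NoSelect. Without both animals numbered 3, an alternative added after the data were seen, Fos was called in RiboZero (log2 -1.40, adjusted p = 0.0391) and Fos and Egr2 in PolyA (-1.33 and -1.55, adjusted p = 0.0384 and 0.0196), with 0 calls in NoSelect (edgeR). The share of all rows called in this fit is not given here. With all mice the shares were 3.46%, 4.03% and 2.17%. Across the alternatives, 255 to 976, 412 to 1564 and 103 to 878 rows were called in RiboZero, PolyA and NoSelect. Over all alternatives the adjusted p of Fos ran from 0.0295 to 0.592 in RiboZero and from 0.0104 to 0.597 in PolyA.

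**Figure D3:**
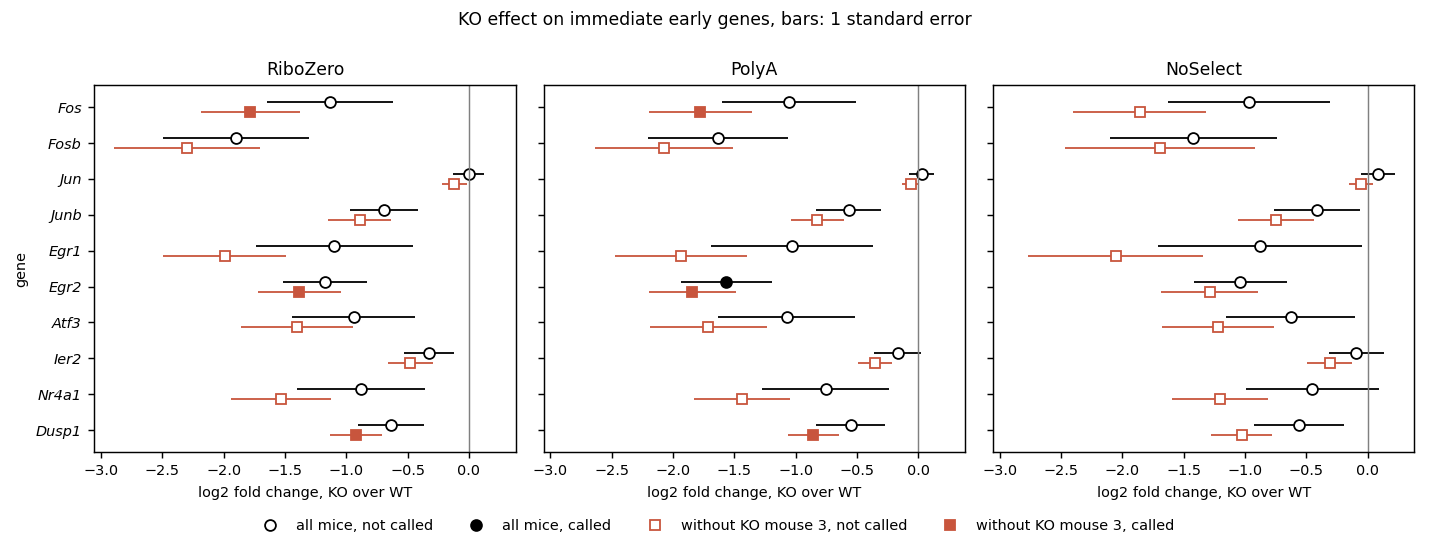
Fitted log2 fold change of KO over WT for each gene in each preparation, with bars of 1 standard error, for all mice (black circles) and without KO mouse 3 (red squares); filled symbols have an adjusted p under 0.05 (edgeR). Only Egr2 in PolyA is filled with all mice, and the red squares lie to the left of the black circles.

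The members varied together from mouse to mouse. After subtraction of the group mean, all 45 pairs of members had a positive correlation across the 12 mice of RiboZero (median r = 0.861, from 0.6 to 0.987) and of PolyA (median 0.876, from 0.607 to 0.977) and across the 8 of NoSelect (median 0.921, from 0.476 to 0.996). This is a description over libraries that share depth and handling. It rested in large part on the high animals: without WT mice 2 and 3 and KO mouse 3 the median r was 0.497 in RiboZero and 0.37 in PolyA over 9 mice, with 42 and 40 of 45 pairs positive, and without the 2 animals numbered 3 it was 0.657 over 6 mice in NoSelect. Within WT, the SD of the log2 level was 0.83 for Fos and 1.07 for Egr1 in RiboZero, at percentiles 96.6 and 97.6 of all rows tested, whereas Jun with 0.16 was at percentile 56.6, and the median row had 0.14.

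For all 10 members the level varied more between mice than the PolyA over RiboZero ratio of the same mouse did. The SD of the log2 ratio was 0.36 for Fosb, against 1.37 for its log2 level in PolyA and 1.57 in RiboZero. For Jun it was 0.10, against 0.18 and 0.24. Over the 12 mice Fos spanned 10.6-fold in RiboZero and 10.8-fold in PolyA, while the PolyA level over the RiboZero level of the same mouse stayed between 0.711 and 1.04. For Dusp1 that ratio stayed between 1.23 and 1.43, while its level spanned 3.58-fold and 3.39-fold over mice. For Fosb, which spanned 29.1-fold and 18.4-fold, the ratio ran from 0.856 to 2.27.

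**Figure D4:**
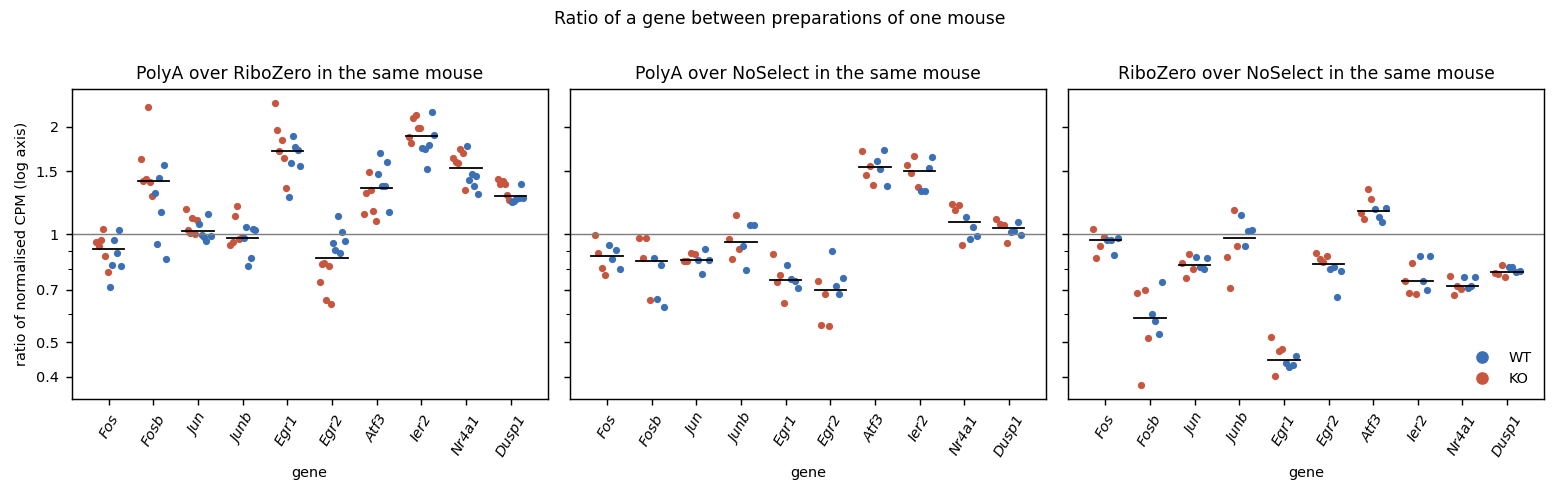
Ratio of normalised CPM (log axis) of each immediate early gene between 2 preparations of the same mouse, 1 point per mouse (WT blue, KO red), with bars at the median. The median ratio is furthest from 1 for Ier2 at 1.88 for PolyA over RiboZero and for Egr1 at 0.447 for RiboZero over NoSelect.

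The preparations were then set against each other in models that held genotype constant. With both an adjusted p under 0.05 and a log2 fold change of 1 or more in size required, 0 of 10 members were called for PolyA against RiboZero (23.6% of rows called), PolyA against NoSelect (25.1%) and RiboZero against NoSelect (4.3%). By the adjusted p alone, edgeR gave 1, 2 and 2 members, against 81.1%, 79.1% and 45.9% of rows. These were Ier2, higher in PolyA than in RiboZero (log2 0.92, SE 0.15, adjusted p = 3.73e-06, higher in 12 of 12 mice), and Jun and Ier2 in both comparisons with NoSelect. With the mouse as a block, which removes the differences between animals, SEs fell from between 0.09 and 0.48 to between 0.02 and 0.08 for PolyA against RiboZero, and 9, 9 and 8 members had an adjusted p under 0.05 (87.2%, 83.6% and 57.8% of rows). With the fold threshold as well, the block gave 0, 0 and 1 members (23.9%, 24.7% and 4.58% of rows). Egr1 was then called lower in RiboZero than in NoSelect (log2 -1.14, SE 0.04, adjusted p = 2.13e-10), and its ratio was below 1 in 8 of 8 mice, from 0.401 to 0.518. Egr1 was also higher in PolyA than in RiboZero in 12 of 12 mice (median ratio 1.71), as were Atf3 (1.34), Nr4a1 (1.53) and Dusp1 (1.28). Atf3 was highest in PolyA, at a median of 1.54 times NoSelect in 8 of 8 mice, and Fosb was highest in NoSelect, at a RiboZero over NoSelect ratio of 0.585. Junb, with a median ratio of 0.980 for PolyA over RiboZero, did not pass the test in any pair (adjusted p = 0.723, 0.77 and 0.542 with the mouse as a block).

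No member passed the test for a KO effect that depends on the preparation. In the test of the interaction of genotype and preparation, 0 of 10 members were called in each of the 3 pairs of preparations, and 0.0% of rows were. At an unadjusted p under 0.05 edgeR gave 0 members in each pair and 1.82%, 2.24% and 1.39% of rows, and DESeq2 called 0 members. That fit does not use the fact that the libraries come from the same mice. With the mouse as a block, edgeR again called 0 members in each pair (0.00551%, 0.0% and 0.00571% of rows), and at an unadjusted p under 0.05 it gave 1, 1 and 0 members, against 5.18%, 7.99% and 3.98% of rows. The 1 member was Egr2 in both cases. For PolyA against RiboZero its KO effect differed by log2 -0.36 (SE 0.53, unadjusted p = 0.503) without the block and by -0.39 (SE 0.10, unadjusted p = 0.00114, adjusted p = 0.775) with it, and over all alternatives the adjusted p ran from 0.775 to 1.0 (edgeR or DESeq2). Its PolyA level over the RiboZero level of the same mouse ran from 0.885 to 1.12 in the 6 WT mice and from 0.641 to 0.834 in the 6 KO mice, without overlap. This was 1 of 10 members, against 0.372% of rows, and was examined after the values were seen.

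Levels between genes were compared per kilobase of merged exons, in WT. Dusp1 was highest in all 3 preparations (median 65.9, 86.8 and 82.6 normalised CPM per kilobase in RiboZero, PolyA and NoSelect), followed by Jun (49.8, 51.5 and 61.5). Fos, Nr4a1, Ier2, Junb, Atf3 and Egr1 came between (6.27 to 28.6), and Egr2 and Fosb were lowest (1.98 and 1.41 in RiboZero). The ranges of neighbours in this order overlapped except for Jun above Ier2 and Egr1 above Fosb in PolyA and Atf3 above Egr2 in NoSelect.

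A list of 34 other immediate early and early response genes was examined in the same way. Of the 32, 33 and 33 tested, 26, 29 and 26 had a lower fitted mean in KO, with medians of -0.34, -0.39 and -0.30. Called were 0 of 32 in RiboZero, 0 of 33 in PolyA and 1 of 33 in NoSelect by edgeR, with 11, 11 and 10 genes at an unadjusted p under 0.05. Of all rows, 3.46%, 4.03% and 2.17% were called, and 16.4%, 18.0% and 15.7% had an unadjusted p under 0.05. DESeq2, which called 5.84%, 7.87% and 5.13% of all rows, called 1, 7 and 4 of them. Of these, Gadd45b and Ier5 in PolyA and Gadd45b in NoSelect were higher in KO, and the other calls (1, 5 and 3) were lower. The 1 call was Myc, the growth-promoting transcription factor, at 10.9 ± 1.70 in WT and 6.52 ± 0.82 in KO in NoSelect (SD, n = 4; log2 -0.75, adjusted p = 0.0264), where no KO library reached the lowest WT library. In NoSelect 4.4% of all rows lay lower in KO without overlap. In RiboZero and PolyA its log2 fold changes were -0.50 and -0.62 (adjusted p = 0.171 and 0.118, edgeR). Over the alternatives for NoSelect its adjusted p ran from 3.93e-05 to 0.0919, with 9 of 16 below 0.05. Without KO mouse 3, 3, 6 and 1 of the listed genes were called lower, among them Ccn1, Sik1 and Zfp36 in RiboZero and in PolyA. Of all rows, 1.66%, 1.84% and 0.794% were called lower in these fits. These shares are no like baseline, since KO mouse 3 was the highest KO animal for most listed genes. Without WT mouse 3 the calls were 0, 0 and 0, so that the Myc call was lost, the medians were -0.23, -0.32 and -0.13, and 24 of 32, 26 of 33 and 19 of 33 were lower. KO mouse 3 was the highest KO animal for 25 of 32, 26 of 33 and 26 of 33 of the listed genes, against 18.5%, 14.3% and 25.7% of all rows.

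The 5 genes outside the members whose mouse-to-mouse pattern was most like that of Fos were all on this list. The list was chosen with earlier results of these data known, so this overlap is no independent support. With the 10 members left out, among 9899 rows with a symbol and an average log2 CPM of at least 3, ranked by the mean Pearson r with Fos over the 12 RiboZero and the 12 PolyA libraries after subtraction of group means, the top 5 were Ccn1 (mean r = 0.977), a matricellular protein, Btg2 (0.964), an antiproliferative factor, Zfp36 (0.945), an RNA-binding protein that promotes decay of messages, Klf6 (0.905) and Klf2 (0.900). In NoSelect, which the ranking did not use but which shares the mice, r was 0.993, 0.978, 0.962, 0.972 and 0.938. Without WT mice 2 and 3 and KO mouse 3, r over 9 mice was 0.934 and 0.831 for Ccn1 in RiboZero and PolyA and 0.727 and 0.522 for Klf2. Ccn1 stood at 168 in KO mouse 3 and at a KO mean of 67.8 in RiboZero, against a WT mean of 134. Some members were as near: r with Fos was 0.987, 0.977 and 0.996 for Egr1 in RiboZero, PolyA and NoSelect, 0.924, 0.922 and 0.941 for Dusp1 and 0.902, 0.916 and 0.979 for Nr4a1.

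A list of 27 genes that act upstream, the kinases, CREB and SRF family factors and cofactors that induce immediate early genes, had medians near 0. By edgeR 0 of 27 were called in each preparation, with 2, 1 and 3 at an unadjusted p under 0.05, and DESeq2 called 0. Of all rows, edgeR called 3.46%, 4.03% and 2.17%, and 16.4%, 18.0% and 15.7% had an unadjusted p under 0.05. The medians of their log2 fold changes were -0.02, -0.02 and 0.00, and 16, 15 and 13 of 27 had a lower fitted mean in KO. The lowest adjusted p belonged to Rps6ka3, a ribosomal S6 kinase (log2 0.12, SE 0.05, adjusted p = 0.207 in RiboZero), and to Mapk9, which encodes JNK2 (log2 0.10, SE 0.04, adjusted p = 0.239 in PolyA). Srf was lower in KO without a call (log2 -0.29, -0.25 and -0.14, adjusted p = 0.261, 0.281 and 0.598, edgeR). It ranked 9 of 9899 rows outside the members by likeness to Fos (mean r = 0.836). KO mouse 3 was the highest KO animal for 6, 4 and 11 of 27, against 18.5%, 14.3% and 25.7% of all rows.

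Some markers of other cell types differed with genotype or in some of the high animals, and their part in these results was not tested. The summed level of 6 neutrophil markers ran from 28.3 to 45.0 normalised CPM in WT and from 27.3 to 96.5 in KO in RiboZero, and from 28.5 to 46.0 and from 27.9 to 120 in PolyA, with a median log2 fold change of 1.01 and 1.00 and 1 of 6 called higher in each. KO mouse 3 ranked 3 of 12 in each. Of 6 macrophage markers, 1, 3 and 0 were called lower in KO, and their sum ran from 285 to 480 in WT and from 317 to 479 in KO in RiboZero. The sum of 6 endothelial markers ran from 2006 to 2348 in WT and from 2236 to 2754 in KO in RiboZero, with KO mouse 3 highest. WT mouse 2, also a high animal for the members, had the lowest endothelial sum (2006 in RiboZero and 1623 in PolyA). The sum of 6 cardiomyocyte markers was lowest of all in KO mouse 3 (29.4, 74.3 and 31.4 in RiboZero, PolyA and NoSelect) and next lowest in WT mouse 3 (78.5, 144 and 81.3), against a median of 143 in each genotype in RiboZero. WT mouse 2 had the highest cardiomyocyte sum of all (360 in RiboZero and 635 in PolyA). Lymphocyte, erythroid and adipocyte sums also varied between mice. In RiboZero they ran from 9.95 to 68.4, from 195 to 1478 and from 5.93 to 34.4 normalised CPM. The sum of 8 lung epithelial markers ran from 15497 to 22338 over all RiboZero libraries. No neutrophil, macrophage, endothelial or cardiomyocyte marker was at 0 in a whole group.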

How the data were processed

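Lung RNA of 12 mice gave 32 libraries. Estimated counts for 41687 genes were deposited by the authors in a single table; 12.81% of its values were not whole. Salmon 1.4.0, UMI-tools 1.1.1 and the build GRCm38 are named per the submitters' processing notes; the index, the annotation and whether duplicates were removed by molecular identifier are not given in the sources used here. RiboZero and PolyA libraries used 200 ng of RNA and NoSelect libraries 15 ng, with 11 PCR cycles, and 6 NoSelect preparations per mouse were combined, per the labels. All 32 columns were matched by name.

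Counts were rounded and tested in R 4.3.3 with edgeR 4.0.16 (TMM scaling, filterByExpr, quasi-likelihood F test, Benjamini-Hochberg adjustment over all rows tested). Within a preparation KO was set against WT; preparations were compared with genotype as a covariate, and KO effects by an interaction term. Standard errors are the absolute log2 fold change divided by the root of F. Figures and tables were made in Python 3.11.15 with pandas 2.3.3. Symbols, lengths and positions came from GENCODE M21 and a table of gene names, and promoters from RefSeq (GRCm38.p6). The fits were tested on simulated data.

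Named genes are the 10 members, and beside them every gene of the lists of other early genes and of upstream genes called in KO against WT in at least 1 preparation or otherwise the 2 of lowest adjusted p, and the 5 rows most like Fos. Srf was named in addition, after its values were seen. The members and lists were chosen with earlier results of these data known. Libraries of the same mouse are paired across preparations by the numbers in the labels: their deviations from group means correlated at 0.514 to 0.778 over 14359 rows, and each was most like its own mouse in 12 of 12, 8 of 8 and 8 of 8 cases. Replicates are separate mice; chi-square per degree of freedom was 7.02 to 69.9 over 72 pairs of libraries. Alternatives were DESeq2 1.42.0, median-of-ratios scaling, other filters, removal of mitochondrial and ribosomal RNA rows, a replicate block, the subset of mice 3 to 6, 1 joint model of the 32 libraries, leaving out each mouse in turn and, added after the data were seen, leaving out both animals numbered 3.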

Additional observations from a re-analysis of the deposited data

Results flagged for a closer look

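In 60 groups of 4 to 6 mice (10 genes, 3 preparations, 2 genotypes), the highest animal stood apart from the others by Dixon's criterion in 18. Chance flags about 1 in 20 groups where values are normally distributed. The criterion was applied to normalised CPM without a log, and values skewed to the high side can be flagged more often. The share flagged over all rows was not computed. The groups are also not independent, since the members move together and the preparations share mice. In 17 of the 18 the animal was KO mouse 3. In RiboZero its normalised CPM was 85.2 for Fos (next highest KO mouse 28.4), 40.7 for Junb (23.7), 74.6 for Egr1 (16.4), 32.8 for Ier2 (21.4) and 133 for Nr4a1 (39.2). In PolyA it was 82.1 for Fos (26.4), 45.9 for Junb (23.0), 127 for Egr1 (31.96), 6.05 for Egr2 (3.36), 50.8 for Atf3 (19.8), 69.2 for Ier2 (42.5) and 211 for Nr4a1 (56.4). In NoSelect it was 82.2 for Fos (21.6), 47.1 for Junb (24.3), 144 for Egr1 (30.5), 44.3 for Ier2 (27.1) and 174 for Nr4a1 (55.7). The remaining case was WT mouse 3 with Egr1 at 246 in NoSelect, next to 61.9 in the next WT mouse. Fosb, Jun and Dusp1 gave no such case.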

How the results depend on the processing

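Called members depended on single mice. In RiboZero (0 called) DESeq2 and the fit without both animals numbered 3 gave 1 each, and leaving out 1 mouse at a time gave 0 to 3, the 3 without KO mouse 3. In PolyA (1 called) mice 3 to 6 alone gave 0, the fit without both animals numbered 3 gave 2, and leaving out 1 mouse gave 0 to 3. In NoSelect each alternative that was run gave 0. A replicate block on the numbers that WT and KO share, which name different animals, gave 3 (Fos, Junb, Dusp1), 4 (Fos, Egr1, Egr2, Dusp1) and 0; equal-numbered animals correlated at -0.132 to 0.31, -0.162 to 0.316 and -0.218 to 0.132, and 1 of 6, 2 of 6 and 0 of 4 pairs were most like their own number, so the numbers are not taken as pairs.

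For preparations with an adjusted p under 0.05, the count of PolyA against RiboZero (1) became 9 with the mouse as replicate block, 3 without both animals numbered 3 and 1 to 2 on leaving out 1 mouse. PolyA against NoSelect (2) became 9 with the block, and 1 with no filter on low counts or mice 3 to 6 alone. RiboZero against NoSelect (2) became 8 with the block, 0 with mice 3 to 6 alone and 1 to 3 on leaving out 1 mouse; with the fold threshold, 0 became 1 (Egr1) with the block and 0 to 1 on leaving out 1 mouse.

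For KO against WT and for preparations, signs turned in 28 fits, given in this paragraph. The log2 fold change of Jun in KO was 0.0021 in RiboZero with no filter, 0.0010 in the fit of all 32 libraries, 0.0634 with mice 3 to 6 alone and -0.118 to 0.0686 on leaving out 1 mouse (above 0 without WT mouse 2 at 0.0065, 3 at 0.0575 or 4 at 0.0034 or KO mouse 1 at 0.0686, 4 at 0.0245 or 6 at 0.0357). Jun was at -0.0607 in PolyA and -0.0561 in NoSelect without KO mouse 3 (up to 0.0845 and 0.1673 on leaving out other mice), and at -0.0204 in PolyA without both animals numbered 3. Without WT mouse 3, NoSelect gave 0.1574 for Egr1, 0.1068 for Ier2 and 0.0288 for Nr4a1, against -2.0534, -0.3077 and -1.2001 without KO mouse 3. For PolyA against RiboZero Junb was at 0.0359 with no filter, 0.0361 without WT mouse 3 and 0.0055 without WT mouse 4 (lowest -0.0478). For PolyA against NoSelect Nr4a1 was at -0.0207 and -0.0021 without WT mice 2 and 6 (highest 0.1375), and Dusp1 at -0.0039 and -0.0080 without WT mouse 6 and KO mouse 4 (highest 0.0915). For RiboZero against NoSelect Fos was at 0.1220 and Junb at 0.0040 without both animals numbered 3, and Atf3 at -0.0670, -0.0006, -0.0130 and -0.0010 without WT mice 2, 5 and 6 and KO mouse 5 (highest 0.1303). The cause was not tested. For interactions, where 0 members were called in each alternative, signs also turned: in the 2 comparisons with NoSelect (PolyA first, then RiboZero), from 10 of 10 members below 0 in each to 7 and 7 without KO mouse 3 and to 7 and 6 with the mouse as a block. The lowest count of a member was 21, in Fosb; the effect of depth was not tested.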
